A study of Mus musculus with 4 samples.

Results

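The sympathoadrenal and catecholamine genes are 8 genes listed by name, Th, Ddc, Dbh, Slc18a1, Slc18a2, Phox2a, Gata3 and Hand2, taken as 8 of the 49997 gene rows of the count tables. They were read in 4 poly(A) RNA libraries of mouse aorta-gonad-mesonephros (AGM) explants, the embryonic region in which blood stem cells arise. The explants carried the C57BL/6J background and came from embryos of days 10.5 and 11.5 by the growth protocol. All were cultured for 48 hours on a filter at the air interface in medium with hydrocortisone. The 2 untreated libraries received no CCCP, and the 2 CCCP libraries were kept with 5 µM CCCP, a protonophore that dissipates the membrane potential of mitochondria. The labels differ on the material, which is c-kit+ stem cells of day 10.5 in one place and whole explants in the RNA protocol, and none says whether the libraries of a group came from separate embryos, so p-values measure only the spread between these libraries.

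Sympathetic neurons and chromaffin cells descend from the trunk neural crest. The precursors of sympathetic neurons settle beside the dorsal aorta. There they turn on a set of transcription factors, PHOX2A, GATA3 and HAND2 among them, and then the genes for making noradrenaline. Tyrosine hydroxylase (Th) makes L-DOPA in the rate-limiting step, DOPA decarboxylase (Ddc) makes dopamine from it, a vesicular monoamine transporter (Slc18a1 or Slc18a2) loads dopamine into vesicles, and dopamine beta-hydroxylase (Dbh) turns it into noradrenaline inside them. In the mouse AGM, Gata3 and catecholamines of the sympathetic nervous system have been tied to the production of blood stem cells.

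All 8 genes were detected in every library, with 56 counts or more, and all 8 passed the filter on low counts. In edgeR's quasi-likelihood test over 19837 genes, 0 of them passed an adjusted p of 0.05 for CCCP against untreated. The test called 0% of those genes, so the count of 0 members equals the background. At an unadjusted p under 0.05 the count was 0 of the 8 genes, against 14.6% of all genes. DESeq2 called 0 of the 8, against 2.99% of all genes, and edgeR without a filter on low counts also called 0, against 3.43%. Of the 12 alternative fits, 11 called none of the 8 genes. Those with other scalings, a stricter filter or only the exon-length trend removed called 0 genes at all, so they could call no member. The fits that left out 1 library called few genes. The fit with the replicate number as a block called Hand2, where 10.7% of all genes were called. The log2 fold changes of CCCP over untreated lay between -0.28 (Phox2a) and 0.44 (Hand2). Their median was -0.01, as was the median of all genes tested. The 2 groups did not overlap for 2 of the 8 genes, Ddc (higher in CCCP) and Slc18a2 (lower), while 48.8% of all genes had groups that did not overlap. With whole-explant RNA, fewer cells of a type and less RNA per cell cannot be told apart.

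Library totals were between 37360968 and 48827826 counts, replicate 1 being the deeper library of each group. Kit (47.6 to 63.2 CPM, counts scaled to a common library size) and Ptprc, which mark blood progenitors and leukocytes, were detected in all libraries. Ptprc stood at 6.85 and 6.82 CPM in untreated and 3.65 and 3.39 CPM in CCCP libraries. Of the 7 haematopoietic markers tested, 2 were lower in CCCP without overlap and 1 was higher. Among all genes these shares were 24.8% and 24.0%. The filter on low counts was passed by 9 of 9 pan-neuronal, 6 of 6 Schwann cell precursor and neural crest, 7 of 7 nephric duct and mesonephros, 5 of 5 endothelial and 5 of 5 mesenchymal markers. The summed level of the pan-neuronal markers was 1656 to 1840 CPM in untreated and 1570 to 1762 CPM in CCCP libraries. The same sum was 226 to 228 and 240 to 266 CPM for the Schwann cell precursor markers, 131 to 146 and 114 to 118 CPM for the 8 haematopoietic markers, 363 to 473 and 359 to 363 CPM for the endothelial markers, 1668 to 2996 and 1917 to 2492 CPM for the mesenchymal markers, and 788 to 1332 and 3.46 to 62.1 CPM for the 6 hepatic markers. The hepatic markers thus separated the groups, and their part in the values of the 8 genes was not tested.

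Among the transcription factors, Hand2 had the highest level and the largest difference between groups. Hand2 (chromosome 8, 57320983 to 57324517) encodes a basic helix-loop-helix factor that sympathetic precursors share with limb, branchial and lateral mesoderm. It stood at 23.1 and 35.5 CPM in untreated replicates 1 and 2 and at 32.2 and 47.3 CPM in CCCP replicates 1 and 2. Replicate 2 was the higher library in each group, and the groups overlapped, since CCCP replicate 1 lay below untreated replicate 2. The means were 29.3 ± 8.79 and 39.8 ± 10.6 CPM (SD, n = 2 in each group). By edgeR's quasi-likelihood test the log2 difference was 0.44 (standard error 0.266, adjusted p = 0.478). Its 95% interval ran from -0.21 to 1.09, or from 0.865-fold to 2.13-fold. The value rested on which libraries were used, at 0.14 without CCCP replicate 2 and 0.80 without untreated replicate 2. With the replicate number as a block it was 0.45 (adjusted p = 0.0336, edgeR), where 10.7% of all genes were called. With the trend of fold change on exon length also removed, the block gave 0.34 (adjusted p = 0.0848, edgeR). No label says what a replicate number stands for, so the main fit had no block.

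Gata3 (chromosome 2, 9857078 to 9887953), a zinc finger factor needed for Th and Dbh expression in sympathetic neurons and also expressed in the nephric duct and in lymphoid cells, had 8.97 and 12.1 CPM in untreated and 10.2 and 13.1 CPM in CCCP libraries. Here too replicate 2 was the higher library of each group, and the groups overlapped. The log2 fold change was 0.15, with a 95% interval from -0.44 to 0.73 (adjusted p = 0.802, edgeR), and it was -0.046 without untreated replicate 1 and -0.043 without CCCP replicate 2. Gata3 shares 77 exonic bases with 9230102O04Rik on the same strand, which leaves its count uncertain. Markers of other tissues that use Gata3 were also read, and their sums do not measure the amount of a tissue. The nephric duct and mesonephros markers summed to 138 to 195 CPM in untreated and 139 to 184 CPM in CCCP libraries. Of the 6 T and innate lymphoid markers, 3 passed the filter (Tcf7, Il7r and Rag1), Cd3d was at 0 in all libraries, and the list summed to 22.1 to 33.6 and 31.8 to 34.5 CPM, nearly all of it Tcf7.

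Phox2a (chromosome 7, 101818313 to 101822726), a paired-like homeodomain factor of autonomic neurons, was the scarcest factor of the set. It had 136 and 58 counts in untreated replicates 1 and 2 and 96 and 56 counts in CCCP replicates 1 and 2. These counts correspond to 2.72 and 1.55 CPM in untreated and 1.98 and 1.54 CPM in CCCP libraries. Replicate 1 was thus the higher library in both groups, and the groups overlapped. The log2 fold change of -0.28 had a 95% interval from -1.27 to 0.72 (adjusted p = 0.772, edgeR) and was 0.19 without untreated replicate 1. Phox2a shares 95 exonic bases with Inppl1 on the opposite strand, and reads were counted without regard to strand, so its count is uncertain.

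**Figure D1:**
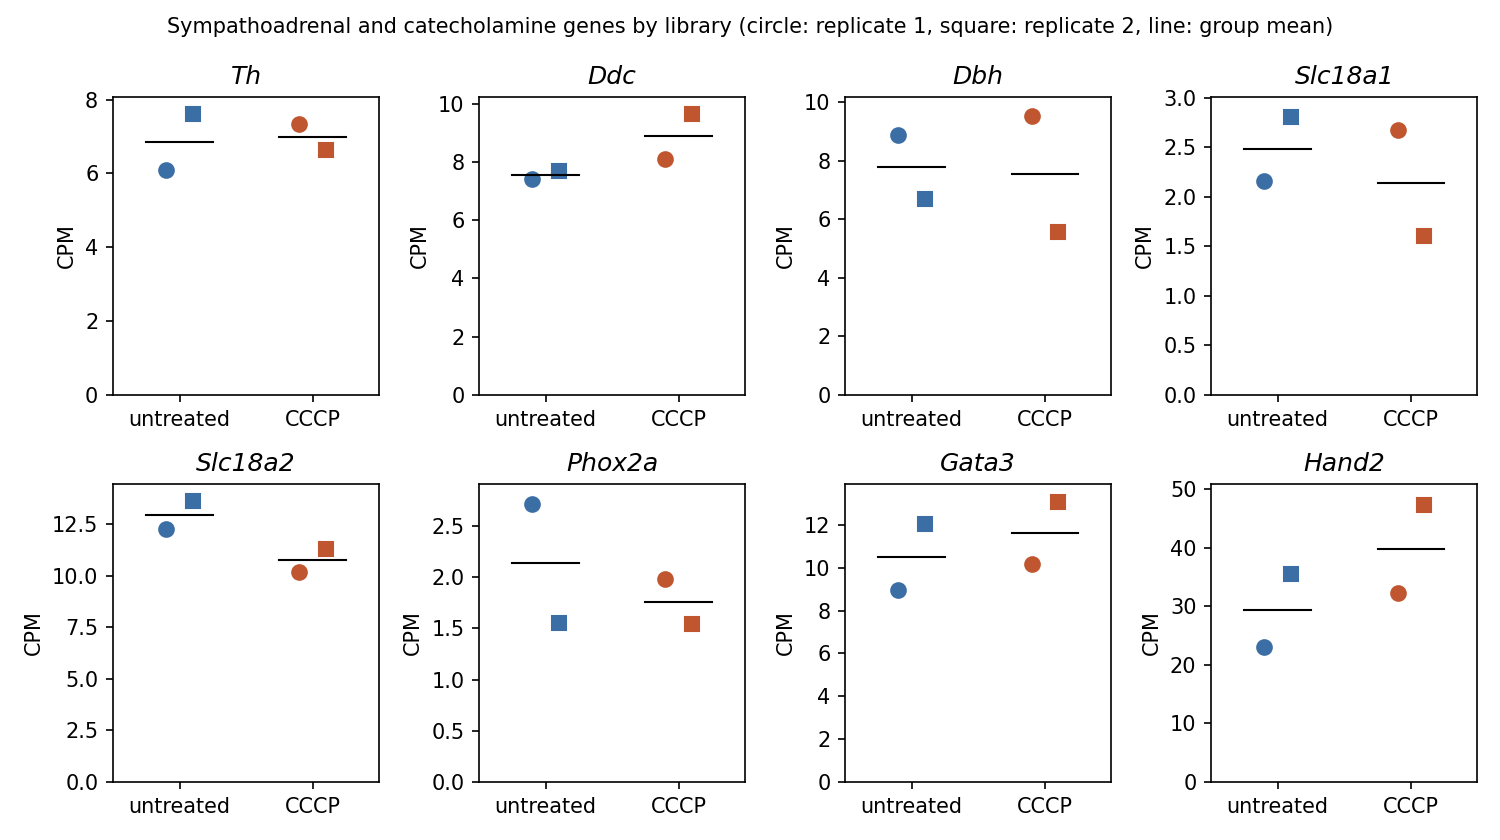
CPM (counts scaled to a common library size by TMM, linear axis from 0) of each of the 8 genes in the 2 untreated and the 2 CCCP libraries; circles are replicate 1, squares are replicate 2 and lines are group means. Only Ddc and Slc18a2 have groups that do not overlap, and for 6 genes, all but Th and Slc18a1, the same replicate number is the higher library in both groups.

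Th and Dbh encode the enzymes of the rate-limiting and the last step to noradrenaline, and the sequences before their start sites are shown. Any link between these sequences and the counts was not tested. The RefSeq promoter table (GRCm38.p6) held 7 of the 8 genes, the exception being Slc18a1. The 250 bases before each start were searched on both strands for the cAMP response element TGACGTCA, through which activity signals act on many neuronal genes, and for ATTA, the core bound by homeodomain factors such as PHOX2A. Capitals mark the matches, which do not overlap one another.
Th (chr7:142899996-142900245, minus strand): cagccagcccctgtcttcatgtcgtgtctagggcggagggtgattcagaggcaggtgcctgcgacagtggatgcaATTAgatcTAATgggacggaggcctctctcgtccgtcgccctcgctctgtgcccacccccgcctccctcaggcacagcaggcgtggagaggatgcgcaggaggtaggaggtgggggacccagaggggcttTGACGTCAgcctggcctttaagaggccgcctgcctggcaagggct
Dbh (chr2:27165257-27165506, plus strand): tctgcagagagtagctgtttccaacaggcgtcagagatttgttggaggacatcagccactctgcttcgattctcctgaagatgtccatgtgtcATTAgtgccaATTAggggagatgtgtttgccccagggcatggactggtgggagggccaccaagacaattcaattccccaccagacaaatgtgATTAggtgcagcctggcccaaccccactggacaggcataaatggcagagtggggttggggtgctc
The Th sequence held 1 TGACGTCA, beginning 45 bases before the start, and 2 matches to ATTA, at 175 and 167 bases. In Dbh there was no TGACGTCA and there were 3 matches to ATTA, at 157, 147 and 65 bases. TGACGTCA occurred in 1.55% and ATTA in 54.9% of the 32851 promoter windows of this length, so the ATTA matches are common. Among the other genes, Slc18a2 had a TGACGTCA that begins 4 bases before its start and runs past it. The matches to ATTA numbered 5 in Hand2, 2 and 3 at the 2 starts of Ddc, 1 in Slc18a2, and 0 in Phox2a and Gata3. A match is a description of the letters and was not tested as a binding site.

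Th (chromosome 7, 142892779 to 142899995) had 305 and 285 counts in untreated and 356 and 241 counts in CCCP replicates 1 and 2. Scaled by library size these were 6.09 and 7.62 CPM in untreated and 7.33 and 6.64 CPM in CCCP libraries. Both CCCP libraries lay between the untreated ones. The means were 6.86 ± 1.08 and 6.99 ± 0.489 CPM (SD, n = 2), and the log2 fold change was 0.03 (standard error 0.235, adjusted p = 0.965) by edgeR's quasi-likelihood test. Its 95% interval ran from 0.687-fold to 1.52-fold, so differences within those bounds were not excluded. Its sign changed with the libraries used, from -0.12 without untreated replicate 1 to 0.22 without untreated replicate 2, and it was -0.02 without library scaling.

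Dbh (chromosome 2, 27165507 to 27183204) had 444 and 251 counts in untreated and 462 and 202 counts in CCCP replicates 1 and 2. On the CPM scale its levels were 8.87 and 6.71 in untreated and 9.52 and 5.57 in CCCP libraries. The CCCP libraries lay on either side of the untreated ones, and replicate 1 was higher than replicate 2 by 1.32-fold in untreated and by 1.71-fold in CCCP explants. Against that spread the difference between groups was small, a log2 fold change of -0.05 with a 95% interval from -0.83 to 0.74 (adjusted p = 0.960, edgeR). It was 0.29 without CCCP replicate 2 and -0.49 without CCCP replicate 1. Per exon length, the ratio of Dbh to Th was 1.14 and 0.688 in untreated replicates 1 and 2 and 1.01 and 0.655 in CCCP replicates 1 and 2. The 95% binomial intervals of this ratio, which cover counting error only, were 0.981 to 1.32 and 0.578 to 0.818 in untreated and 0.881 to 1.17 and 0.541 to 0.793 in CCCP libraries. Since both reads of a pair could be counted, all counting intervals here are too narrow. Dbh and Th were near parity in replicate 1 of each group, and Dbh was below Th in replicate 2 of each group, with or without CCCP.

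Ddc (chromosome 11, 11814101 to 11898144), which also acts in serotonin synthesis and is expressed outside neurons from a separate start site, had 7.41 and 7.67 CPM in untreated and 8.12 and 9.65 CPM in CCCP libraries. Both CCCP libraries were above both untreated ones, as in 24.0% of all genes. The means were 7.54 ± 0.186 and 8.88 ± 1.08 CPM (SD, n = 2), and the log2 fold change of 0.24 carried a standard error of 0.213 (adjusted p = 0.627, edgeR). It was 0.11 without CCCP replicate 2. Ddc shares 95 exonic bases with a predicted gene on the opposite strand, and the counts per gene do not separate its 2 start sites.

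The vesicular transporters differed in level. Slc18a2 (chromosome 19, 59260878 to 59296012) encodes VMAT2, used by monoamine neurons, mast cells and platelets as well as by sympathetic neurons, and Slc18a1 (chromosome 8, 69037708 to 69089238) encodes VMAT1, typical of endocrine chromaffin cells. Slc18a2 had 12.3 and 13.6 CPM in untreated and 10.2 and 11.3 CPM in CCCP libraries, so both CCCP libraries were below both untreated ones, as in 24.8% of all genes. Its means were 12.9 ± 0.937 and 10.8 ± 0.780 CPM (SD, n = 2), and the log2 fold change of -0.27 carried a standard error of 0.187 (adjusted p = 0.527, edgeR). The sign of this value was the same whichever library was left out, with values from -0.34 to -0.17. Slc18a1 had 108 and 105 counts in untreated and 130 and 58 counts in CCCP libraries, or 2.16 and 2.81 against 2.68 and 1.60 CPM. The groups overlapped for Slc18a1, whose log2 fold change of -0.21 (95% interval -1.15 to 0.73, adjusted p = 0.828 in edgeR) became 0.11 without CCCP replicate 2 and 0.01 without untreated replicate 2. Per exon length Slc18a2 exceeded Slc18a1 by 4.69-fold and 3.99-fold in untreated and by 3.14-fold and 5.83-fold in CCCP libraries, and the lowest bound of the 4 counting intervals was 2.58-fold. Of the 5 mast cell markers none passed the filter, 2 (Mcpt4 and Tpsb2) were at 0 in all libraries, and their sum was at most 0.165 CPM in any library. The serotonin and histamine markers Tph1, Tph2, Slc6a4 and Hdc together reached 2.30 to 2.84 CPM in untreated and 1.999 to 2.40 CPM in CCCP libraries, and their part in the Slc18a2 value was not tested.

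**Figure D2:**
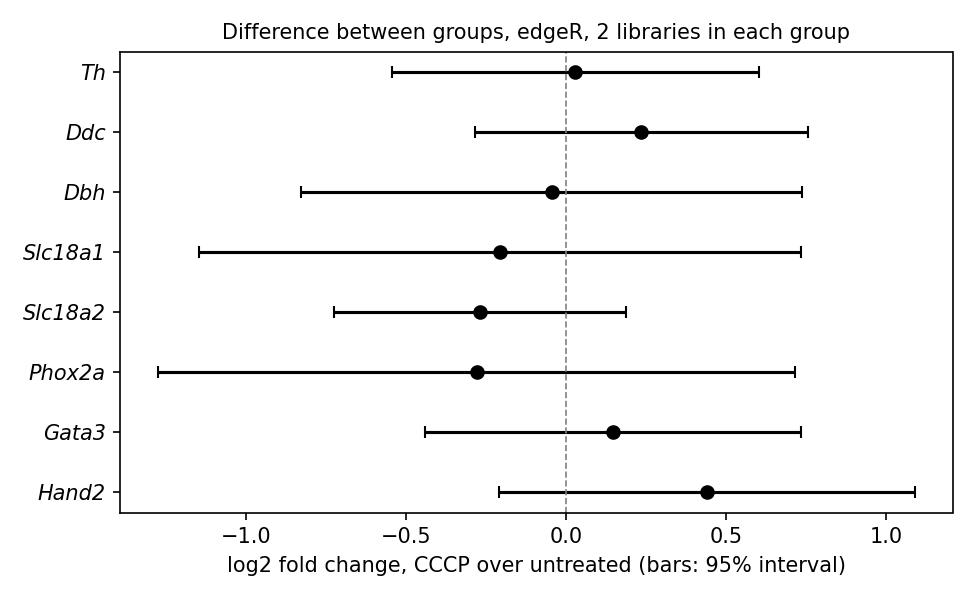
Log2 fold change of CCCP over untreated for the 8 genes, from edgeR's quasi-likelihood fit over 19837 genes, with 95% intervals as bars. Every interval crosses 0, from -0.21 to 1.09 for Hand2 and from -0.72 to 0.19 for Slc18a2.

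On the per-length scale (TPM, counts divided by exon length and scaled to a common total), Hand2 was the highest of the 8 genes in every library, at 31.9 to 51.3 TPM. Th (9.04 to 11.6 TPM), Ddc (9.03 to 10.2), Dbh (5.92 to 12.0), Slc18a2 (7.02 to 9.98) and Gata3 (6.86 to 8.41) followed. The TPM ranges of neighbours in this order overlapped, so neighbours could not be ranked beyond the spread between libraries. The ranges of Th and Ddc lay above that of Gata3. Phox2a (2.33 to 5.22 TPM) was next and Slc18a1 (1.24 to 2.43 TPM) was the lowest in every library, although the ranges of this pair over libraries touched. The order at both ends was the same in all 4 libraries, and only the 5 genes in the middle changed places, Dbh moving from rank 2 in replicate 1 of each group to rank 6 in replicate 2 of each group.

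The other genes of the pathway were read in 5 lists, 64 genes in all, and none of the 62 that passed the filter was called by edgeR, against 0% of all genes. At an unadjusted p under 0.05 there were 2 higher and 5 lower, against 14.6% of all genes. The 9 sympathoadrenal regulators had a median log2 fold change of 0.14, with 6 above 0 and 3 below. Sox11, a factor of immature neurons and the most abundant of them, had 787 and 700 CPM in untreated and 695 and 603 CPM in CCCP libraries. Tfap2b, a neural crest and sympathetic factor that is also expressed in the nephros, had the lowest p of the list. It stood at 75.4 and 64.0 CPM in untreated and 57.0 and 39.4 CPM in CCCP libraries, with no overlap between the groups, at a log2 fold change of -0.53 (adjusted p = 0.316, edgeR). The value was -0.82 without CCCP replicate 1, and -0.29 both without CCCP replicate 2 and with the trend of fold change on exon length removed.

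The 13 genes of tetrahydrobiopterin cofactor supply, catecholamine uptake and breakdown had a median of 0.01, with 7 above 0 and 6 below. Qdpr, which regenerates the cofactor that TH needs, had 52.6 and 66.2 CPM in untreated and 67.1 and 73.6 CPM in CCCP libraries. Slc6a3, the dopamine transporter, had the lowest p on very few reads, 16 and 10 counts in untreated and 2 and 2 counts in CCCP libraries. Its summed level in untreated was 6.30 times that in CCCP libraries, with a counting interval from 2.19 to 24.9 times. That interval covers counting error only, and the edgeR adjusted p-value was 0.272. Maob, a breakdown enzyme (chosen after its values were seen), had 167 and 115 counts in untreated and 86 and 51 counts in CCCP libraries. Both CCCP libraries were below both untreated ones on the CPM scale, as in 24.8% of all genes. The log2 fold change of Maob was -1.01 (adjusted p = 0.272, edgeR).

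The 13 chromaffin and secretory granule genes had a median of -0.12, with 5 above 0 and 8 below. That median was -0.40 without CCCP replicate 1 and 0.25 without untreated replicate 1. Cpe, a prohormone-processing carboxypeptidase and the most abundant of them, had 190 and 141 CPM in untreated and 196 and 137 CPM in CCCP libraries. Vgf, a secretory granule peptide precursor with the lowest p of the list, had 1.88 and 2.62 CPM in untreated and 3.77 and 2.70 CPM in CCCP libraries, and its edgeR adjusted p-value was 0.508.

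Receptors for catecholamines were mostly scarce. The 14 adrenergic and dopamine receptor genes summed to 23.9 to 27.9 CPM in untreated and 28.7 to 28.9 CPM in CCCP libraries, and Drd3 was at 0 in all 4. The 12 that passed the filter had a median of 0.05, with 6 above 0 and 6 below. That median was below 0 whichever library was left out, at -0.11 to -0.028. With the trend of fold change on exon length removed it was -0.029. Adra2a, an inhibitory receptor for noradrenaline and the most abundant, had 11.7 and 9.95 CPM in untreated and 15.5 and 15.4 CPM in CCCP libraries, a log2 fold change of 0.51 (adjusted p = 0.305, edgeR). Drd1, a dopamine receptor with the lowest p of the list, had 26 and 16 counts in untreated and 4 and 3 counts in CCCP libraries. Its summed level in untreated was 5.82 times that in CCCP libraries, with a counting interval from 2.59 to 15.4 times that covers counting error only, and the edgeR adjusted p-value was 0.242.

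Of the 15 neurotrophic ligands and receptors, with a median of 0.13, 9 were above 0 and 6 below. Ngfr, the low-affinity neurotrophin receptor carried by neural crest cells, had 92.9 and 110.0 CPM in untreated and 113 and 109.8 CPM in CCCP libraries. Gfra3, the artemin coreceptor of early sympathetic and sensory neurons and of Schwann cell precursors, had the lowest p of the list. It stood at 5.99 and 4.55 CPM in untreated and 10.7 and 8.96 CPM in CCCP libraries. Both CCCP libraries were above both untreated ones, as in 24.0% of all genes. The log2 fold change was 0.90 (standard error 0.248, adjusted p = 0.241 in edgeR). It was between 0.73 and 1.12 when 1 library was left out. Ntrk3, with the next lowest p (chosen after its values were seen), went the other way. It had 50.3 and 34.1 CPM in untreated and 23.8 and 27.3 CPM in CCCP libraries. Both CCCP libraries were below both untreated ones, as in 24.8% of all genes. Its log2 fold change was -0.73 (adjusted p = 0.251, edgeR).

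**Figure D3:**
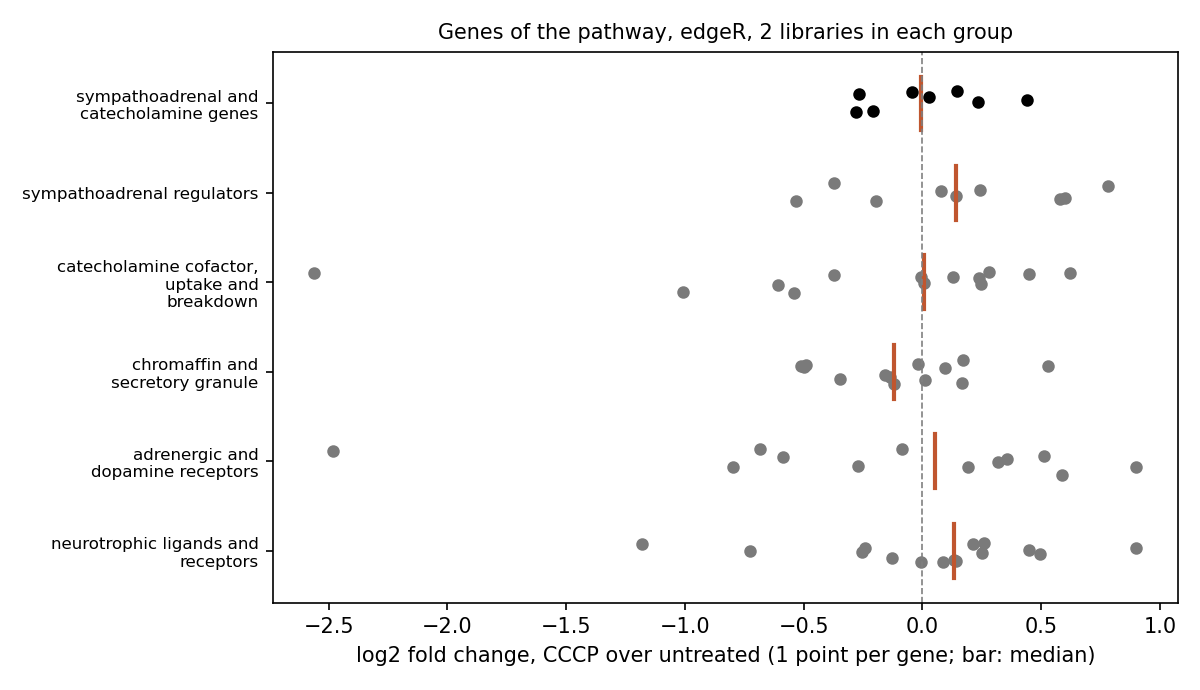
Log2 fold changes of CCCP over untreated (edgeR, 2 libraries in each group) for the 8 genes and for the tested genes of the 5 pathway lists, 1 point per gene, with list medians as bars. The medians lie between -0.12 and 0.14, and the 2 points far to the left are Slc6a3 and Drd1, on 2 to 26 counts per library.

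Same-numbered libraries of the 2 groups often shared their order. Replicate 1 was above replicate 2 in both groups for Dbh and Phox2a, against 31.0% of all genes. Replicate 2 was above replicate 1 in both groups for Ddc, Slc18a2, Gata3 and Hand2, against 33.2% of all genes. Th and Slc18a1 had no common order. In the chromaffin and secretory granule list, 9 of 13 genes had replicate 1 above replicate 2 in both groups and 2 had the opposite order. Npy, a peptide co-released with noradrenaline, stood furthest out (chosen after its values were seen), at 6.23 and 1.82 CPM in untreated and 4.90 and 0.799 CPM in CCCP libraries. Markers of other cell types were read too. Replicate 1 was the higher in both groups for 2 of 4 tested steroidogenic genes and 4 of 7 nephric duct and mesonephros genes. The same held for 4 of 5 mesenchymal, 5 of 9 pan-neuronal and 2 of 6 Schwann cell precursor genes. It held for 3 of 7 haematopoietic, 0 of 5 endothelial and 0 of 6 hepatic genes. The opposite order held for 2 of 5 endothelial genes and for at most 1 gene in each of the other lists just named. The summed steroidogenic markers ranged from 11.4 to 15.5 CPM in untreated and 10.3 to 17.9 CPM in CCCP libraries, with Cyp17a1 and Cyp21a1 under the filter. Of the lateral mesoderm and heart markers, 2 of 6 had replicate 1 higher and 2 of 6 had replicate 2 higher, and the list summed to 45.4 to 54.9 and 34.9 to 43.9 CPM. The 3 cholinergic markers, which sympathetic precursors can also express, summed to 6.33 to 8.69 and 5.95 to 6.64 CPM. No label says what a replicate number stands for.

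**Figure D4:**
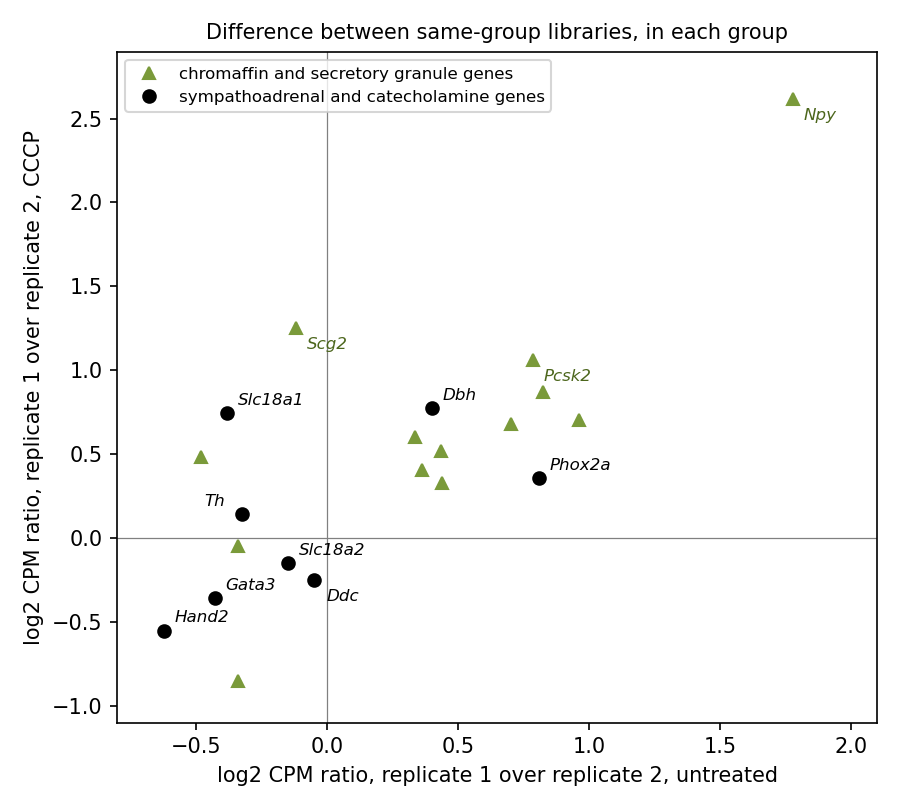
Log2 ratio of CPM in replicate 1 over replicate 2, untreated on the horizontal and CCCP on the vertical axis, for the 8 genes (black) and the 13 chromaffin and secretory granule genes (green triangles). Dbh (0.40 and 0.77) and Phox2a (0.81 and 0.36) lie in the upper right with 9 of the granule genes, while Hand2 (-0.62 and -0.55), Gata3, Slc18a2 and Ddc lie in the lower left.

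Genes with the most similar profile over the 4 libraries were sought for Th and Dbh among 13942 named genes outside the lists with a mean CPM of at least 1, by the Euclidean distance of centred log2 CPM. For Th these were Mycl (distance 0.0280), Slc8a3 (0.0431) and Dtx4 (0.0436), and for Dbh they were C1qtnf1 (0.0331), Psd (0.0425) and Ttyh1 (0.0456). Mycl, for example, had 90.6 and 111 CPM in untreated and 108 and 96.4 CPM in CCCP libraries, the same order of libraries as Th. Dbh itself was at a distance of 0.685 from Th, and 79.4% of those genes were nearer to Th than Dbh was. Phox2a was the member nearest to Dbh, at 0.431, with 6.97% of the genes nearer. With 4 libraries, close profiles arise among many unrelated genes.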

How the data were processed

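Poly(A) RNA of 4 libraries (2 untreated, 2 CCCP) was analysed from the deposited raw counts of reads per gene. Per the file headers, the authors counted exons per gene with featureCounts 2.0.3 on the mm10 RefSeq annotation, in paired mode with each read of a pair counted singly, and without a strand, multi-mapping or overlap option, although the library kit is directional per the labels. Reads touching 2 genes were therefore dropped, which lowers counts of overlapping genes. Reads mapping to several places were dropped too, which lowers counts of paralogs. The submitters' processing notes also name HISAT2, SAMtools and FastQC. The header of untreated replicate 1 names its alignment by another letter than the title, so its sample was taken from the file record. The exon lengths used for TPM are a deposited column of another kind, in bases.

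The test was edgeR 4.0.16 (glmQLFit, glmQLFTest) in R 4.3.3 with TMM, filterByExpr (minimum count 10, total 15) and no term but the group, two-sided, with Benjamini-Hochberg adjustment over all genes tested and a threshold of 0.05. Standard errors are the log2 fold change divided by the square root of F. The steps were tested on simulated data. With 2 libraries a group, no exact permutation test of 1 gene can pass 0.05. A count of 3, the floor, equals 0.0614 to 0.0803 CPM of the raw totals. Alternatives were DESeq2 1.42.0, other scalings and filters, the replicate number as a block, removal of the exon-length trend (lowess span 0.3), and leaving out each library with the tested genes kept. Members and lists were chosen with earlier results of these data known. Named from each list were the most abundant gene and the one with the lowest p. Maob, Ntrk3 and Npy were chosen after their values were seen.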

Additional observations from a re-analysis of the deposited data

How the results depend on the processing

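The number of genes called was 0 in edgeR with other scalings, a stricter filter or the length trend removed. It was 594 in DESeq2, 1107 without a low-count filter, 2118 with the replicate block, 1242 with the replicate block and the length trend removed, and 1 to 34 when 1 library was left out (1 without untreated replicate 1, 34 without untreated replicate 2, 1 without CCCP replicate 1, 22 without CCCP replicate 2). None of the 8 genes was called in 11 of these 12 fits. With the replicate block 1 was, Hand2, at 0.45 (adjusted p = 0.0336, edgeR) (0.0336 to 0.953 over its alternatives), where 10.7% of all genes were called. Same-numbered libraries deviated together (correlation 0.36 over 19837 genes), but with only 2 pairs, and no label on what a number means, they were not used as pairs. The replicate block also called Tfap2b (-0.55, adjusted p 0.0112), Gfra3 (0.90, 0.0152) and Ntrk3, and these 3 list genes passed without the filter too. With the length trend also removed the replicate block called only Gfra3 of the list genes (0.78, 0.0439), and Tfap2b was -0.31 (0.131). The cause was not tested.

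Signs turned as follows. Th was -0.025 without scaling, -0.10 with the length trend removed and -0.098 with the replicate block and the length trend removed, and ran from -0.12 to 0.22 when 1 library was left out. Over the same omissions Dbh ran from -0.49 to 0.29, Slc18a1 from -0.63 to 0.11, Phox2a from -0.60 to 0.19, Gata3 from -0.046 to 0.39 and Cpe from -0.27 to 0.25. Cpe was -0.049 without scaling, -0.014 with the stricter filter, and -0.11 with the length trend removed, with or without the replicate block. Sox11 was 0.021 and 0.019 in those last 2 fits. The median of the 8 genes was -0.13 with the length trend removed and -0.14 with the replicate block added, and -0.12 to 0.12 when 1 library was left out. With the stricter filter the receptor median was 0.17 and the cofactor, uptake and breakdown median 0.10, and the receptor median was -0.029 with the length trend removed. When 1 library was left out the medians ran from -0.11 to -0.028 for receptors, -0.042 to 0.17 for the cofactor list, -0.064 to 0.15 for neurotrophic genes and 0.10 to 0.30 for regulators. DESeq2 gave no adjusted p for Slc6a3 and Drd1. Of the 8 genes, Phox2a and Slc18a1 had the lowest counts, 56 to 136 per library.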
